A study of Mus musculus with 15 samples.

Results

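Mouse B cells were followed from the naive state into activation in the presence of GSK343, an inhibitor of the histone methyltransferase EZH2, to see which genes of the naive state were switched off and which were switched off incompletely. The libraries compared were the 3 of activated B cells (actB) grown with GSK343 and the 3 of naive B cells (nB), which are 6 of the 15 samples of the series, over the 21669 genes with a symbol. All samples came from wild-type female C57BL/6J mice, 6 to 9 weeks of age by the study's methods. The nB samples were CD43- cells, left after depletion of CD43-bearing cells on a magnetic column, and had neither culture nor drug. The actB samples were B220+GL7+CD138- cells sorted after 3 days of culture with LPS, IL2, and IL5, with either 2 μM GSK343 or DMSO, its vehicle. Plasmablasts (Pb) were the CD138+ cells of the cultures, and their labels name LPS, IL2, and IL5 for DMSO but LPS, IL2, and IL6 for GSK343, while the study's text gives IL5 for both. Which holds was not settled here, and if the labels hold, the drug and the cytokine cannot be told apart in Pb. The nB cells had no vehicle control, and the passage from nB to actB joins stimulation, culture, and the sort. The inhibitor was given to whole cultures, and no genetic loss of EZH2 was part of this comparison. With bulk RNA, fewer cells that express a gene and less RNA per cell cannot be told apart.

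EZH2 is the catalytic subunit of Polycomb repressive complex 2 (PRC2), which places methyl groups on lysine residues of histone H3, a mark found at silenced genes. Naive B cells are small resting cells that recirculate between blood and lymphoid tissue, held in quiescence by factors such as KLF2 and FOXO1. LPS, a ligand of Toll-like receptor 4, drives them to grow, divide, and switch antibody class, and the genes for homing, quiescence, and antigen reception are turned down. An inhibitor of the methyltransferase blocks the making of new marks, and existing marks are diluted as cells divide.

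The libraries of nB and of actB with GSK343 held 22897224 to 26307413 counted reads. The columns of nB replicates 1 and 2 differed by less than the sampling noise (chi-square per degree of freedom 0.00947 over 14410 genes, against at least 3.57 for every other pair of one group) and were counted as 1 sample, so that n = 2 for nB and n = 3 for actB. The replicate 2 libraries of actB stood apart from replicates 1 and 3 under both treatments, with a chi-square per degree of freedom of 16.7 to 29.7 against 3.8 and 6.07 between replicates 1 and 3. The labels do not say whether replicates are separate animals, and p-values measure only the spread between these samples. Levels are given as RPKM (the deposited RPM, a gene's reads scaled to the total of its library, over gene length in kilobases), and changes as log2 fold changes of RPKM + 0.25, which understates changes of low genes. Genes were called with an adjusted p under 0.05 from limma, fitted over the 11299 genes that reached 1 RPKM in 3 or more of the 15 columns. With 3 libraries against 2 or 3, the smallest two-sided p of an exact permutation test is 0.1.

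Most of the measured genes changed as nB became actB with GSK343. Lower levels were called for 3833 genes (33.9% of those tested) and higher levels for 4792 (42.4%), while 2674 were not called. At least 2-fold changes were called for 1359 genes that fell and 1757 that rose. Over all genes the log2 fold change had a median of 0.09, and -0.02 after centring each library on its median log2 ratio, a shift of more than 0.1. Of the called genes 55.6% were higher, against 48.7% with that centring.

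The deepest falls were of genes for immediate early transcription factors and of genes that mark other blood cells. *Fosb*, which encodes a subunit of AP-1, stood at 149 and 138.1 RPKM in the nB libraries and at 0.110, 0.108, and 0.144 in actB with GSK343. *Fos*, its relative, went from 308.9 and 308.1 RPKM to 0.708, 0.911, and 0.610, a 313-fold fall on the log2(RPKM + 0.25) scale (adjusted p = 7.45e-13 from limma). With DMSO the level of *Fos* was 0.505, 0.674, and 0.512 RPKM. *Klf4*, a factor that restrains cell division, fell 90.9-fold, from 41.7 and 38.6 RPKM to 0.162, 0.226, and 0.196. *Lyz2* and *Lyz1*, the paralogous lysozyme genes of myeloid cells, fell 172-fold and 71.4-fold. *Hba-a2*, a globin gene with a near-identical copy, was at 51.8 and 165.4 RPKM in the nB libraries and at 0.101, 0, and 0 in actB with GSK343. *Apol7c* and *Cd7* also fell from over 20 RPKM in both nB libraries to under 0.1 RPKM in each actB library with GSK343. None of these 8 genes was called between GSK343 and DMSO in actB (adjusted p from 0.244 to 0.967 from limma).

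The largest rises included a transcriptional repressor and a gene of growth arrest. *Zbtb32*, a repressor induced in stimulated B cells, rose from 1.40 and 1.38 RPKM to 196.4, 198.6, and 201.0, and *Cdkn2a*, which encodes p16 and ARF, rose from 0.0766 and 0.192 RPKM to 15.9, 19.3, and 14.5. *Tnfrsf8*, the gene for CD30, was the only one of the 8 largest rises called between the treatments without a replicate block. It was at 6.22, 6.52, and 5.50 RPKM with DMSO and at 11.5, 19.0, and 15.1 with GSK343, 2.40-fold higher (adjusted p = 0.000996 from limma). With the replicate number as a block, *Cdkn2a* (adjusted p = 0.0275) and *Gstt1* (adjusted p = 0.0437), a glutathione transferase gene, were called lower with GSK343. Among the other largest rises were *Fads2*, *Tmed6*, and *Egln3*, with log2 fold changes from nB of 5.38, 5.27, and 5.14.

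Genes of the resting state fell with the inhibitor present. All 16 genes of a list for quiescence and growth restraint fell, where 33.9% of all genes did (median log2 fold change -1.36, against 0.09 over all genes). *Klf2*, the factor that keeps naive lymphocytes resting and recirculating, went from 273.3 and 275.1 RPKM to 51.0, 38.9, and 40.0 with GSK343. With DMSO it was at 35.8, 27.8, and 35.9 RPKM, and the treatments did not differ by the test (log2 difference 0.38, standard error 0.18, adjusted p = 0.209). *Tsc22d3*, a glucocorticoid-induced brake on growth, fell from 118.1 and 122.5 RPKM to 5.42, 6.27, and 4.90. Between the treatments *Klf3*, a repressor of the same family as *Klf2*, was called higher with GSK343 (7.29 to 8.90 RPKM against 5.41 to 6.02), and *Foxp1* and *Cdkn1b* were called lower. With the replicate block 3 genes of the list were higher and 3 lower, *Foxo1* and *Btg2* being added to the first and *Txnip* to the second. The shares over all genes between the treatments were 8.2% higher and 2.16% lower, and 14.7% and 6.71% with the block.

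Receptors for homing and antigen followed the same course. Of 14 homing and positioning receptors 12 fell and 1 rose (median -2.11), of 19 surface receptors of mature B cells 15 fell and 2 rose (median -1.09), and of 16 genes of B cell receptor signalling 12 fell and none rose (median -0.64). Over all genes tested 33.9% fell and 42.4% rose. *Cr2*, complement receptor 2, fell from 158.3 and 168.4 RPKM to 7.08, 8.53, and 8.22. All 10 genes of MHC class II presentation fell (median -1.43), among them *Cd74*, the invariant chain, from 3532 and 3344 RPKM to 1540, 1723, and 1605. None of the 10 was called between the treatments without a block, and with it *H2-Ob* was lower (adjusted p = 0.0185). Of 18 B lineage transcription factors 13 fell and 4 rose. Between the treatments most genes of these lists were not called. Higher and lower with GSK343 were 3 and 1 homing receptors, 2 and 2 surface receptors, 3 and 0 signalling genes, and 1 and 1 B lineage factors. The median log2 differences were 0.067, -0.043, -0.014, and -0.061, and over all genes 8.2% were higher and 2.16% lower. With the block the counts were 5 and 3, 2 and 4, 5 and 2, and 1 and 2, beside 14.7% and 6.71% of all genes.

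Proliferation and the early plasma cell program rose. All 21 proliferation genes were higher than in nB (median 4.10), and 8 of 9 plasma cell genes rose (median 1.83), the exception being *Sdc1*, which encodes CD138, the antigen on which the actB sort was negative. Of 6 tested inhibitors of cyclin-dependent kinases 5 rose and *Cdkn1b* fell. Of 12 activation genes 7 rose and 2, *Myc* and *Nfkb2*, fell. Over all genes tested 42.4% rose and 33.9% fell. Between the treatments *Sdc1*, *Jchain*, and *Ell2* of the plasma cell list and *E2f1* of the proliferation list were higher with GSK343. These were 3 of 9 and 1 of 21, beside 8.2% of all genes. With the block they were 6 and 5, where the share of all genes was 14.7%. Leaving out actB DMSO replicate 2, actB DMSO replicate 3, or actB GSK343 replicate 3 left none of the plasma cell genes called. *Cdkn2c* and *Cdkn2d* were higher and *Cdkn1b* and *Cdkn2b* lower with GSK343 than with DMSO.

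**Figure D1:**
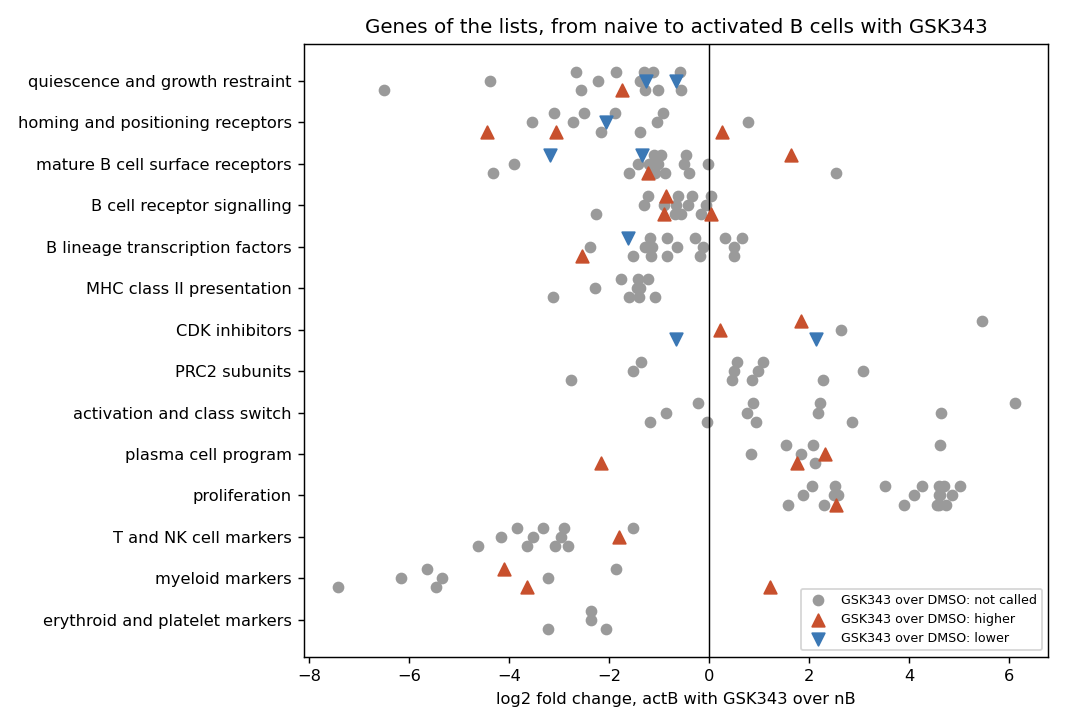
Log2 fold change from nB to actB with GSK343 (horizontal axis, on RPKM + 0.25) of each tested gene of 14 lists (rows). Upward triangles are genes called higher and downward triangles genes called lower with GSK343 than with DMSO in actB, and circles are genes not called. All 16 quiescence genes and all 10 MHC class II genes lie left of 0, and all 21 proliferation genes lie right of it.

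The nB samples held RNA of other blood cells, and the T and NK and myeloid markers among it were far lower in the sorted actB samples. The 5 marker genes of B cells were high in every library, although all 5 fell from nB, *Cd79a* at 1096 to 1221 RPKM in nB and 518.7 to 567.3 in actB with GSK343. The summed level of 12 markers of T and NK cells was 41.0 and 46.0 RPKM in nB, 1.19 to 2.01 in actB with DMSO, and 2.04 to 4.46 in actB with GSK343, where *Cd3e* was at 0 in every library. All 12 of these markers fell from nB, where 33.9% of all genes did, and *Thy1* alone was called higher with GSK343 than with DMSO. The summed level of 12 myeloid markers was 279.9 and 337.3 RPKM in nB, 11.6 to 13.8 with DMSO, and 16.6 to 22.1 with GSK343. Of the 10 that were tested 9 fell from nB. *Itgam*, the gene for CD11b, rose instead, from 3.67 and 4.38 RPKM to 12.8, 6.60, and 10.49 with GSK343, against 4.66, 3.51, and 4.66 with DMSO. Without *Itgam* the sums of the other 11 were 7.71 to 9.15 RPKM with DMSO and 7.98 to 9.95 with GSK343, which overlap. *S100a8*, *S100a9*, and *Elane*, defining genes of neutrophils, were at 0 in all actB libraries with GSK343. The markers called higher with GSK343 than with DMSO were *Itgam*, *Adgre1*, and *Fcer1g*. The erythroid and platelet markers, 6 of 7 in the table, fell less, with sums of 34.4 and 141.5 RPKM in nB. In actB they summed to 9.43 to 13.1 RPKM with DMSO and to 9.58 to 19.3 with GSK343, with *Pf4* and *Ppbp* at 0 in the latter. The part of other cells in the falls from nB was not tested.

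**Figure D2:**
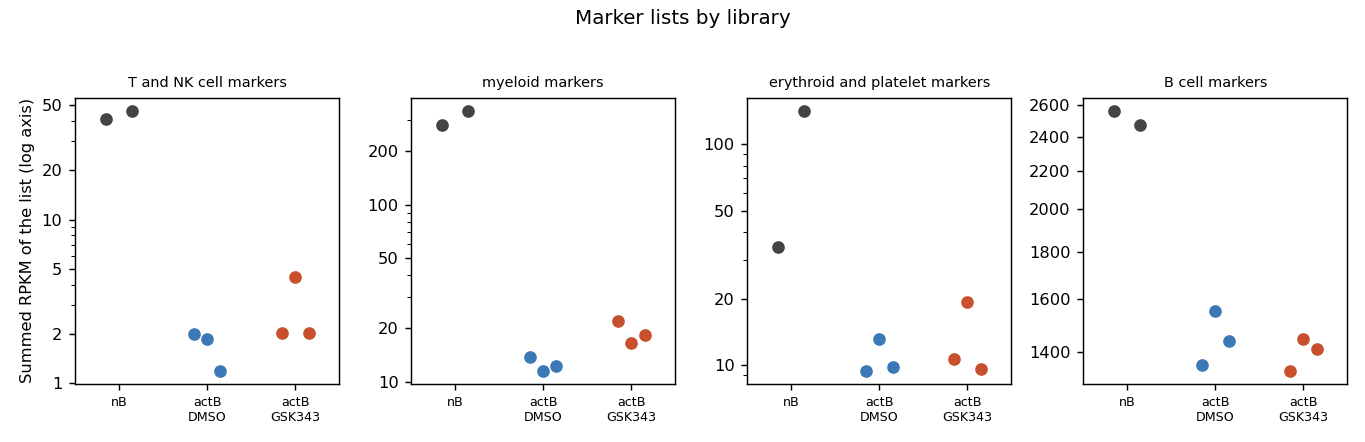
Summed RPKM of 4 marker lists (vertical axes, logarithmic) in each library of nB, actB with DMSO, and actB with GSK343, 1 point per library. Myeloid and T and NK sums drop from nB (279.9 and 337.3, 41.0 and 46.0 RPKM) to both actB groups, and the sum of the B cell markers falls from 2472 and 2559 RPKM in nB to 1336 to 1550 in actB.

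Silencing was then compared between the treatments. With DMSO, 1507 genes (13.3% of those tested) fell at least 2-fold from nB to actB. Of these, 253 (16.8%) were called higher and 17 (1.13%) lower with GSK343 than with DMSO, and 1237 were not called. Among the 1682 genes that rose at least 2-fold, 109 (6.48%) were higher and 63 (3.75%) lower. Over all genes tested 8.2% were higher and 2.16% lower. The comparisons from nB and between the treatments share the actB DMSO libraries. A gene whose DMSO level is low by chance thus enters the group that fell more easily, and one whose level is high the group that rose. These shares are given as a description. Of the 253 genes, 2 had overlapping libraries and 4 exceeded the nB mean with GSK343. The remaining 247 are called incompletely silenced genes below. They were chosen by these measured values, no test of the choice is given, and all 3 GSK343 libraries of actB lie above all 3 DMSO libraries for each of them by that rule. The name describes the levels after 3 days of culture, the only time at which actB was read. A gene that was silenced less and a gene that was silenced and then raised again cannot be told apart.

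The block raised the counts between the treatments over all genes from 926 higher and 244 lower to 1659 and 758, and the number of incompletely silenced genes to 329, of which 243 were among the 247. The share of called genes that were higher was 79.1%, against 65.1% with each library centred on its median ratio, 61.6% with quantile normalization, and 68.6% with the block.

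Most of these genes remained below nB with GSK343. Of the 247, 237 were still called lower than in nB with GSK343, and 152 were still at least 2-fold lower. The retained share, the rise of the mean RPKM with GSK343 over DMSO as a percentage of the fall from nB to DMSO, had a median of 17.4%, quartiles of 10.3% and 26.9%, and a range of 0.692% to 99.4%. It was at least 25% for 72 genes and at least 50% for 17. The nB samples held RNA of other blood cells, which can add to the nB level, and so to the fall, of a gene those cells express. The part of these cells in the retained shares was not tested. The log2 difference between the treatments ranged from 0.17 to 2.65 with a median of 0.57, and it was at least 1 for 40 genes. In nB these genes spanned 0.681 to 310.0 RPKM with a median of 12.3, close to the 11.4 of the other genes that fell. The fall from nB had a median of -1.82 with DMSO and -1.20 with GSK343, against -1.66 and -1.61 for the other genes that fell. The rule that chose the genes fixed the direction of this contrast, so it describes the choice and is no further result. Of the 247, 67 had a mean under 1 RPKM in actB with DMSO, where a library of this depth holds few reads.

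**Figure D3:**
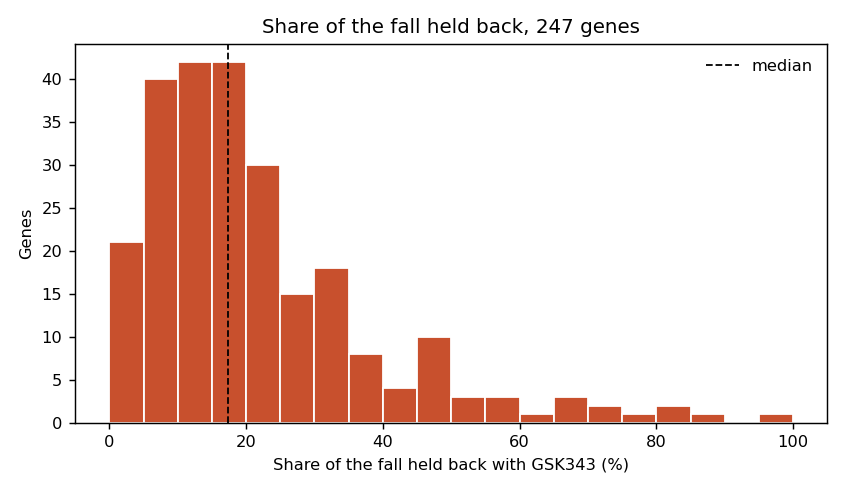
Number of incompletely silenced genes (vertical axis) by retained share of the fall from nB in percent (horizontal axis, bins of 5), with the median of 17.4% as a dashed line. Most of the 247 genes lie under 25%, and 17 lie at 50% or above.

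The 2 largest differences between the treatments among the 247 genes were of chemokine genes. *Ccl4* and *Ccl3*, which encode chemokines that attract T cells and monocytes, were at 13.2 and 11.2 RPKM and at 7.54 and 6.64 RPKM in nB. With DMSO *Ccl4* was at 1.05, 0.858, and 1.59 RPKM, and with GSK343 at 9.02, 5.71, and 11.6. *Ccl3* was at 0.843, 0.594, and 0.895 RPKM with DMSO and at 6.14, 4.01, and 7.38 with GSK343. Every GSK343 library of both genes lay more than 3-fold above every DMSO library, and replicate 2 was the lowest in both treatments. The differences from DMSO were 6.27-fold and 5.82-fold (log2 2.65 and 2.54, standard errors 0.33 and 0.27, adjusted p = 0.000586 and 0.000268 from limma), and the retained shares 68.9% and 80.3%. With GSK343 neither gene differed from nB by the test (log2 -0.52 and -0.31, standard errors 0.36 and 0.30), which does not show that the levels are the same. The genes are neighbours on chromosome 11 of mm9, with *Ccl3* at 83461346 to 83462857 on the minus strand and *Ccl4* at 83476086 to 83478185 on the plus strand.

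Signalling enzymes and receptors were among the incompletely silenced genes. *Fgr*, a Src family kinase that acts below immune receptors, went from 27.3 and 29.5 RPKM to 1.72, 2.61, and 2.33 with DMSO and to 5.85, 5.23, and 5.46 with GSK343. The 3 groups did not overlap, and the treatments differed 2.36-fold (adjusted p = 0.000507 from limma). *Lyn*, the Src kinase that tunes the B cell receptor, differed less, with 64.0 to 69.4 RPKM with DMSO and 75.5 to 81.2 with GSK343 (1.17-fold, adjusted p = 0.00563) from about 147 RPKM in nB. *Pik3cg*, a catalytic subunit of PI3 kinase, stood at 5.86 to 6.83 RPKM with DMSO and 9.96 to 11.04 with GSK343 (1.58-fold, adjusted p = 0.000329). *Sirpa*, an inhibitory receptor, and *Scimp*, an adaptor of MHC class II signalling, were 2.55-fold and 2.43-fold higher with GSK343. *Fgr* and *Sirpa* are also expressed by myeloid cells. The myeloid markers *Itgam*, *Adgre1*, and *Fcer1g* were called higher with GSK343, the sum of the 11 markers other than *Itgam* overlapped between the treatments, and their part in these differences was not tested.

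Genes of adhesion, migration, and the cell cortex spanned retained shares from 1.54% to 73.5%. *Itgb7*, an integrin subunit for homing to the gut, was at 88.4 and 86.5 RPKM in nB, 4.49, 4.75, and 5.33 with DMSO, and 9.60, 10.4, and 10.8 with GSK343. The level that remained was higher with GSK343 (2.06-fold, adjusted p = 0.00731), yet the retained share was 6.53%. *S1pr1*, the receptor by which lymphocytes leave lymphoid organs, fell from 145.7 and 127.3 RPKM to 4.07, 3.63, and 4.18 with DMSO and 6.14, 5.25, and 6.60 with GSK343, a retained share of 1.54%. *Plaur*, the urokinase receptor, fell from 81.9 and 64.6 RPKM to 1.19, 1.31, and 1.54 with DMSO and to 4.42, 3.30, and 3.94 with GSK343 (2.58-fold, adjusted p = 0.000283). *S100a4*, a calcium-binding protein of motile cells, was 2.89-fold higher with GSK343 on 9 to 19 reads per DMSO library. *Myo1f*, a myosin of leukocytes, retained 46.8% of its fall, with 11.8 and 13.8 RPKM in nB, 1.83, 2.26, and 2.07 with DMSO, and 6.90, 6.99, and 7.41 with GSK343. *Ahnak*, a large scaffold protein gene, retained 73.5%, with 14.8 and 19.4 RPKM in nB, 5.33 to 5.70 with DMSO, and 10.9 to 16.9 with GSK343. Of these 6 genes, *Ahnak* alone was not called lower than in nB with GSK343 (log2 -0.29, adjusted p = 0.0935 from limma).

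**Figure D4:**
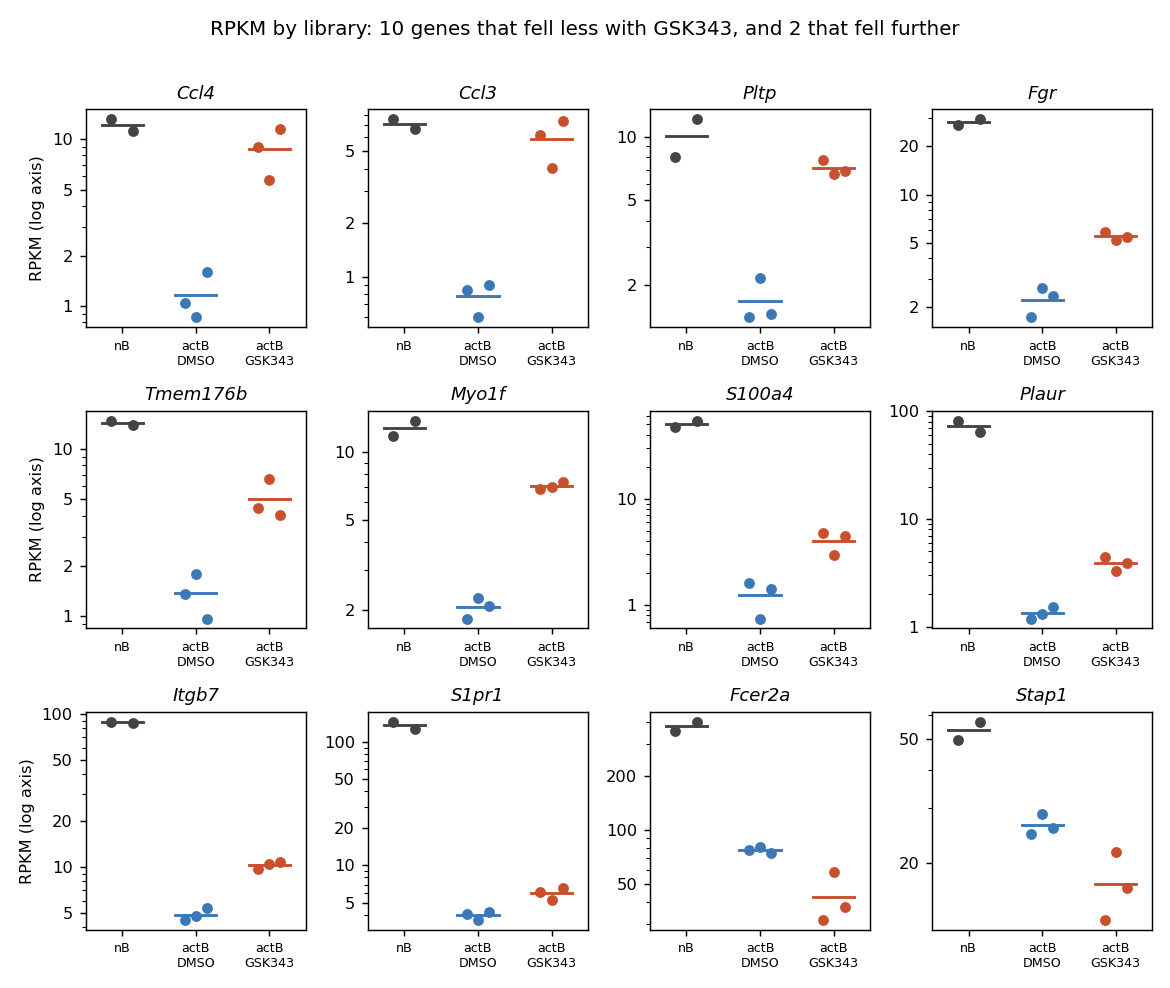
RPKM (vertical axes, logarithmic, a scale for each gene) in each library of nB, actB with DMSO, and actB with GSK343 for 12 genes, with points for libraries and lines for group means. In the first 10 the GSK343 libraries lie above all DMSO libraries and their mean lies below the nB mean, and in *Fcer2a* and *Stap1* they lie below all DMSO libraries.

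Genes of lipid handling were also among them. *Pltp*, the phospholipid transfer protein, was at 8.002 and 12.1 RPKM in nB, 1.40, 2.16, and 1.46 with DMSO, and 7.72, 6.65, and 6.90 with GSK343 (3.87-fold, adjusted p = 0.000524). Some of its exon sequence is shared with *Ctsa*, a gene of the opposite strand, and whether counting used strand is not stated. Against nB it was not called without the block (adjusted p = 0.124) and was lower with it (adjusted p = 0.0142). *Abcg1* and *Abca1*, cholesterol exporters, were 1.89-fold and 2.09-fold higher with GSK343, and *Apoe*, a lipid carrier, was 1.5-fold higher (7.35, 6.22, and 8.17 RPKM against 5.09, 4.12, and 5.04). *Abca1* was at 1.06, 3.04, and 1.51 RPKM with GSK343, so that replicate 2 stood above the other libraries.

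Regulators of transcription and signal strength among the 247 genes included *Bcl6*, *Runx1*, and phosphatases of MAP kinases. *Bcl6*, the repressor of the germinal centre, was at 64.9 and 56.6 RPKM in nB, 7.20, 8.19, and 7.48 with DMSO, and 9.94, 10.8, and 9.81 with GSK343 (1.33-fold, adjusted p = 0.0227). *Runx1* was 1.26-fold and *Klf3* 1.42-fold higher with GSK343. *Dusp2*, *Dusp5*, and *Dusp10*, phosphatases that switch off MAP kinases, were 1.63-fold, 1.55-fold, and 2.01-fold higher. *Dusp10* retained 57.0% of its fall, with 13.2 and 12.6 RPKM in nB, 5.03, 3.62, and 4.71 with DMSO, and 10.97, 6.999, and 9.82 with GSK343. *Zc3h12c*, a relative of the RNase regnase-1, was 2.48-fold higher with GSK343, and *March1*, a ubiquitin ligase that acts on MHC class II, 2.16-fold. *Cd1d1*, which presents lipids to NKT cells, was at 7.15, 8.57, and 7.64 RPKM with DMSO and 11.4, 12.8, and 13.4 with GSK343 (adjusted p = 0.00104). *Itgax*, a gene shared with myeloid cells, had the smallest retained share, 0.692%, from 21.3 and 24.4 RPKM in nB to 0.298, 0.154, and 0.124 with GSK343.

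*Tmem176b* and *Tmem176a*, membrane protein genes of antigen-presenting cells, moved together. *Tmem176b* was at 14.8 and 13.9 RPKM in nB, 1.36, 1.78, and 0.970 with DMSO, and 4.42, 6.64, and 4.06 with GSK343. *Tmem176a* was at 9.98 and 9.11, then at 1.04, 1.56, and 0.611, and at 3.33, 5.35, and 2.78 RPKM. The differences were 3.26-fold and 3.11-fold, and replicate 2 was the highest library of both genes under both treatments. The part of other cells in the levels of these genes was not tested. In mm9 they lie head to head on chromosome 6 with 108 bases between them, *Tmem176b* at 48783810 to 48791373 on the minus strand and *Tmem176a* at 48791482 to 48795363 on the plus strand.

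The sequence upstream of the start is shown for 4 of these genes that span the range of CpG content, since PRC2 in mammals is known to gather at CpG-rich starts. RefSeq promoters (GRCm38.p6) matched 19 of the 23 named incompletely silenced genes. In the 250 bases before the start they held 1 to 33 CpG dinucleotides, and 11 of the 19 held more than 6, the median over the 27025 genes with an entry, which 46.5% of those genes exceed. The 19 included *Myl12b*, *Snn*, and *Crip1* (28, 21, and 13 CpG), which were named for their nB level and not for a large difference. The sequences of *Tmem176a* and *Tmem176b* overlap and were counted separately. Among the genes named for large differences were some with few CpG (*Ccl3*, 2) and some with many (*Zc3h12c*, 33). Whether CpG content goes with the size of the difference was not tested. The CpG dinucleotides are in capitals, and each line reads 5′ to 3′ on the strand of the gene.
*Tmem176a* (chr6:48841233-48841482, plus strand, 1 CpG): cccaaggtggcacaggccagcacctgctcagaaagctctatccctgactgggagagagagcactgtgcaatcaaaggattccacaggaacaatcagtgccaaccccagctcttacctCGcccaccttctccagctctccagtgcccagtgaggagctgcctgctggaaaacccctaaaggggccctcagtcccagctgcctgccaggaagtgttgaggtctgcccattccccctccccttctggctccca
*Ccl3* (chr11:83649379-83649628, minus strand, 2 CpG): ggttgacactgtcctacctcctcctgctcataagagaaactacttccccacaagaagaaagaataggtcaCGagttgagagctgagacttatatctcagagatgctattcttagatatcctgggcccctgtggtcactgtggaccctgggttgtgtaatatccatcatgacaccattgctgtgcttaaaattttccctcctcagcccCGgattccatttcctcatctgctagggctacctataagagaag
*Plaur* (chr7:24462233-24462482, plus strand, 6 CpG): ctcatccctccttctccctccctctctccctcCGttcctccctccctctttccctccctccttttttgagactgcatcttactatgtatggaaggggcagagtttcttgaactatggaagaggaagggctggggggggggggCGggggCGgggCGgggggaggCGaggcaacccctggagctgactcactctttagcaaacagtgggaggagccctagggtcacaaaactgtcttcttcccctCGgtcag
*Zc3h12c* (chr9:52168407-52168656, minus strand, 33 CpG): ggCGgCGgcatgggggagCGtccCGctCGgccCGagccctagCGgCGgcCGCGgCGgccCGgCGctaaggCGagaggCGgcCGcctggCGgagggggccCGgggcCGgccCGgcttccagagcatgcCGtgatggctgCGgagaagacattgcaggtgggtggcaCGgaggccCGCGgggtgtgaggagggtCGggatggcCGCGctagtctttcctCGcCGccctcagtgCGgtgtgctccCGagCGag

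Further genes among the 20 largest differences were *Emid1* (2.68-fold), *Nrgn* (2.27-fold), *Axl* (2.26-fold), *Stom* (2.23-fold), and *Pacsin1* (2.23-fold), from nB levels of 3.50 RPKM, the lower *Axl* library, to 19.0 RPKM, the higher *Emid1* library. Of these 20 genes 17 remained incompletely silenced under each of 27 other settings, and *S100a4*, *Scimp*, and *Axl* were lost under at least 1. Of all 247 genes 94 remained under every setting. Of the other genes named here, *Sdc1*, *Myl12b*, and *Crip1* remained under 10 of the 27, *Shtn1* under 12, *Dusp5* under 16, *Abca1* and *Ccr9* under 18, and *Bcl6* under 22. The 3 with the highest nB level besides these, *Myl12b*, *Snn*, and *Crip1*, differed between the treatments by 0.17, 0.43, and 0.29 on the log2 scale. *Myl12b*, a myosin light chain gene, was at 327.2 and 292.9 RPKM in nB, 87.5, 86.2, and 84.4 with DMSO, and 96.4, 101.1, and 93.3 with GSK343. *Snn* shares exon sequence with *Txndc11*, and *March1* with a noncoding gene, both of the opposite strand. Against nB, 10 of the 247 genes were not called different with GSK343.

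For that last group low levels and a spread of the nB libraries limit the test. Beside *Ccl4*, *Ccl3*, *Pltp*, and *Ahnak* it held *Thbd*, *Icos*, *Ccr9*, *Dse*, *Itga5*, and *Shtn1*, with retained shares of 65.8% to 99.4% and nB levels under 3 RPKM. *Thbd*, the gene for thrombomodulin, was at 1.04 and 0.905 RPKM in nB, 0.159, 0.156, and 0.177 with DMSO, and 0.746, 0.807, and 0.789 with GSK343. *Icos*, a costimulatory receptor better known from T cells, was at 1.21 and 0.899, then at 0.221, 0.204, and 0.101, and at 0.491, 1.17, and 0.784 RPKM. The T and NK markers given above were highest in the same replicate 2 library with GSK343, and their part in the level of *Icos* was not tested.

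At the threshold, *Ttyh3* (adjusted p = 0.0477) and *L1cam* (adjusted p = 0.048) were just inside, and *Plbd1* (adjusted p = 0.0506) and *Gsn* (adjusted p = 0.0513) just outside, all from limma. *Gsn*, which encodes gelsolin, was at 41.7 and 43.5 RPKM in nB, 9.97, 16.6, and 12.03 with DMSO, and 19.6, 25.9, and 20.02 with GSK343, and its adjusted p was 0.000992 with the replicate block. *Plbd1* was called with the block too (adjusted p = 0.0369).

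A smaller group of naive genes fell further with the inhibitor. *Fcer2a*, the gene for CD23, the low-affinity IgE receptor of resting B cells (chromosome 8 of mm9, 3681737 to 3694174), was at 357.8 and 400.6 RPKM in nB. It was at 77.4, 80.9, and 74.7 RPKM with DMSO and at 31.7, 58.8, and 37.2 with GSK343, 0.531 times the DMSO level (adjusted p = 0.0373, and 0.00946 to 0.133 over the alternatives). The treatments did not overlap, and replicate 2 with GSK343 was the nearest to DMSO. *Stap1*, an adaptor of B cell receptor signalling, was at 49.99 and 57.04 RPKM in nB, 24.8, 28.6, and 25.9 with DMSO, and 13.1, 21.7, and 16.5 with GSK343 (adjusted p = 0.0121). *Mirt1*, a long noncoding RNA gene, *Kifc2*, a kinesin gene, and *Rltpr*, which acts in costimulation of lymphocytes, were at 0.564, 0.691, and 0.705 times their DMSO levels. Of the fixed lists *Id3*, *P2ry10*, *Fcrl1*, *Foxp1*, and *Cdkn1b* were also lower with GSK343 than with DMSO. Over the 27 other settings *Fcer2a* was called under 17, *Stap1* under 26, and *Id3* under 12.

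Naive genes were also defined by the contrast of Pb with DMSO against nB, which takes no actB level. The actB libraries still entered the filter and the estimate of the spread, and actB and Pb libraries of the same number deviate together, so that the choice is not wholly independent of the effect in actB. Lower levels by at least 2-fold in Pb with DMSO than in nB were called for 2181 genes (19.3% of those tested). Of these, 259 (11.9%) were higher and 43 (1.97%) lower with GSK343 than with DMSO in actB, beside 8.2% and 2.16% over all genes, and the median log2 difference was 0.06. Of the 2028 genes that were at least 2-fold higher in Pb than in nB, 194 (9.57%) were higher and 63 (3.11%) lower, with a median of 0.05. With the block 442 of the naive genes (20%) were higher, beside 14.7% of all genes and 17.6% of the genes higher in Pb, and 6.17% of the naive genes were lower. Leaving out actB DMSO replicate 1, actB DMSO replicate 3, or actB GSK343 replicate 3 gave 146, 167, and 170 naive genes (6.70%, 7.66%, and 7.80%), beside 4.46%, 4.61%, and 4.63% of all genes.

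The 247 genes were then read in Pb, whose levels the rule did not use, although the Pb libraries entered the filter and the estimate of the spread behind the calls. Since actB and Pb libraries of the same number deviate together, deviations that helped choose a gene in actB can recur in Pb. The shares below are therefore not wholly independent of the choice, and a fit without Pb does not remove this. With GSK343, 111 (44.9%) were called higher and 1 (0.405%) lower than with DMSO in Pb, where 7.9% and 5% of all genes tested were. All 3 GSK343 libraries lay above all 3 DMSO libraries of Pb for 158 (64.0%), against 18.8% of all genes, and the log2 difference was above 0 for 229 (92.7%), against 50.8%. Its median was 0.28. Of the 162 genes that the rule chose in a fit of nB and actB alone, an alternative added after the data were seen, 85 (52.5%) were called higher in Pb, and 92.6% had a log2 difference above 0. Sums of markers of other cells were higher with GSK343 in Pb too. The myeloid sum without *Itgam* was 6.47 to 8.14 RPKM with DMSO and 10.02 to 12.61 with GSK343. The rise of 1 gene, *Fcer1g*, whose levels in Pb are given below, was about as large as that of the whole sum. The sum thus does not show a rise of the other myeloid markers, and the sum without *Fcer1g* was not taken. The T and NK sum was 1.41 to 1.74 RPKM against 1.95 to 3.20. The part of these markers in the result was not tested. In Pb with DMSO 216 of the 247 genes were lower than in nB and 16 higher, where 41.1% of all genes tested were lower and 39.5% higher. The 247 genes were chosen for a fall from the same nB libraries, so that these counts are in part set by the choice. *Ccl4* was at 6.53, 5.26, and 11.9 RPKM in Pb with DMSO and at 49.7, 36.8, and 67.4 with GSK343, and *Ccl3* at 3.15, 2.70, and 4.55 against 27.4, 16.6, and 32.3, so that both lay above nB in Pb with GSK343. *Thbd* had a mean of 1.88 RPKM with DMSO and 12.2 with GSK343 (log2 2.55, adjusted p = 9.44e-06). *Lyn* and *S1pr1* were not called in Pb (log2 0.00 and 0.12). Without Pb DMSO replicate 1 the count of 111 was 71, beside 4.72% of all genes. With the block it was 138, beside 1553 genes (13.7%) higher and 1227 lower over all genes in Pb.

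**Figure D5:**
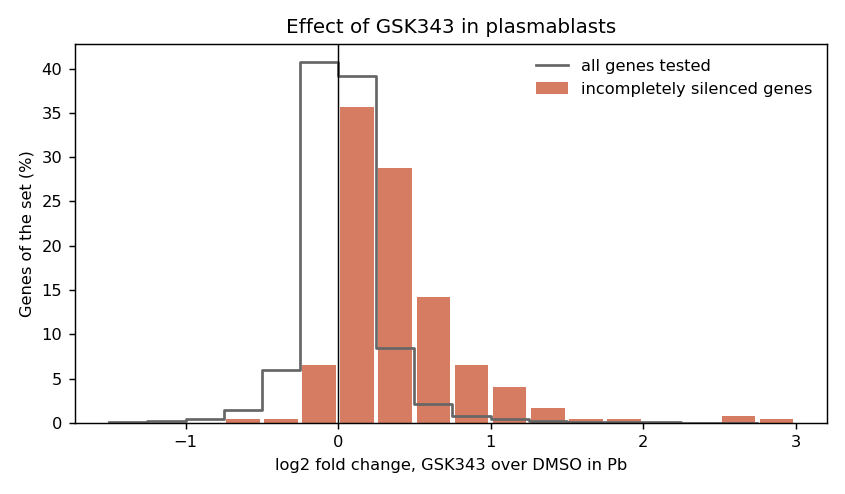
Percentage of genes (vertical axis) by log2 fold change of GSK343 over DMSO in Pb (horizontal axis, bins of 0.25), for the 247 incompletely silenced genes as bars and for all 11299 genes tested as a line, with values beyond the axis counted in the end bins. The bars lie to the right of the line, with 92.7% of the 247 genes above 0 against 50.8% of all genes.

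The transcripts of PRC2 itself rose for the most part with activation. Of 11 subunit genes 8 rose and 3 fell from nB to actB with GSK343, where 42.4% of all genes rose and 33.9% fell. *Ezh2*, the target of the drug, was at 13.8 and 14.3 RPKM in nB and at 127.8, 106.1, and 127.3 with GSK343, against 102.8, 94.3, and 106.5 with DMSO. The treatments were not called different (log2 0.25, standard error 0.080, adjusted p = 0.0705) without the block and were with it (adjusted p = 0.00218), and a long noncoding RNA gene of the opposite strand shares exon sequence with it. *Ezh1*, the other methyltransferase of the complex, fell from 19.0 and 19.9 RPKM to 6.51, 8.28, and 7.47, and *Phf1* and *Jarid2*, accessory subunits, fell as well. The transcript level says nothing on whether the enzyme was inhibited.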

How the data were processed

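The authors mapped 50 bp paired-end reads of poly(A) RNA, from a stranded kit with 500 ng of total RNA, to mm9 with TopHat 2, counted reads over exons of UCSC known genes with GenomicRanges 1.22.4, and deposited RPM per Entrez gene. Strand use in counting is not stated. In every column 100% of values are whole multiples of 1 read, so that the depth of 19421830 to 26307413 reads was recovered. At this depth 3 reads, which a count of 0 allows, equal up to 0.154 RPM, which covers counting error only. To obtain RPKM, each RPM value was divided by the gene's deposited length in kilobases, and 92 genes without a symbol were left out.

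The 15 columns were reduced to 14 libraries by averaging nB replicates 1 and 2, and one limma model (version 3.58.1, R 4.3.3) covered all 5 groups (trend, 9 residual degrees of freedom) on log2(RPKM + 0.25). Adjusted p-values are two-sided, by the Benjamini-Hochberg method over all genes tested. In simulated counts with 200 genes changed 2-fold the fit was tested before use. Those counts had the same dispersion for every gene and no replicate effect, so that they do not show how the fit performs on these data. Alternatives were pseudocounts of 1 and 0.05, no filter and a filter of RPKM 3, median scaling, quantile normalization, nB and actB alone, all 15 columns, edgeR 4.0.16 on the recovered reads (quasi-likelihood, TMM or RLE, 11146 genes), a replicate block, no fold limit, and each nB and actB library left out. With TMM, edgeR called 4330 genes lower and 4332 higher from nB to actB with GSK343, and 425 lower and 816 higher between the treatments in actB. Added after the data were seen were both actB libraries numbered 2 left out together, each Pb library left out, the interaction term, the myeloid sum without *Itgam*, the counts of incompletely silenced genes in Pb under each setting, their choice in a fit without Pb, and the direction of all listed genes.

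Cultured samples of the same replicate number tended to deviate together, most clearly for number 2. Numbers 1 and 3 were less distinct: actB DMSO replicate 3 correlated at 0.370 with actB GSK343 replicate 1 and at 0.356 with replicate 3. Deviations from group means correlated between libraries of the same number (r of 0.158 to 0.502, 0.435 to 0.713, and 0.219 to 0.356 for numbers 1, 2, and 3, 6 pairs each), against -0.603 to 0.370 over 36 pairs of different numbers. The merged nB library was given number 1 or 2 in the block, and blocked values in the text use 1.

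The groups of genes and the lists were chosen with earlier results of these data known, and the lists were written from general knowledge. Named genes were the 8 largest falls and rises from nB among genes without overlap of libraries, of at least 10 RPKM in the higher group and 200 bases in length, the 20 incompletely silenced genes of at least 2 RPKM in nB with the largest differences and the 3 with the highest nB level, the 5 largest falls between treatments among genes that fell from nB, *Ezh2*, *Ezh1*, and *Gsn*, the 2 genes on each side of the threshold, and members of lists called between treatments or with large changes. The other incompletely silenced genes were named for their known roles after their values were seen. Coordinates of genes are of mm9 (GENCODE vM1) and those of promoters of GRCm38.p6. Some genes that the rule names are not reported here. Other data types of the study were not analysed here.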

Additional observations from a re-analysis of the deposited data

Results flagged for a closer look

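*Fcer1g*, which encodes the common gamma chain of Fc receptors, was higher with GSK343 in both cell types, and the effect was larger in Pb. It was at 1.61, 1.39, and 1.32 RPKM with DMSO and 2.08, 2.34, and 2.13 with GSK343 in actB, and at 1.72, 1.78, and 1.68 against 7.39, 5.39, and 5.87 in Pb. The effect in Pb exceeded that in actB by 1.16 on the log2 scale (adjusted p = 0.0272 for the interaction term in limma, 0.00601 to 0.105 over the 26 alternatives that could give it). The labels of the Pb cultures with GSK343 name IL6 in place of IL5, while the study's text gives IL5 for both treatments, and if the labels hold, the drug and the cytokine cannot be told apart.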

How the results depend on the processing

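Direction of the change from nB with GSK343 was checked under every setting for 431 genes, which are the named genes, the tested list members, and the incompletely silenced genes. It turned under at least 1 setting for 8 of them, none of which was called: *Syk*, *Pik3cd*, *Tnfrsf13c*, *Irf4*, *Bhlhe40*, *Ccr9*, *Dse*, and *Shtn1*. *Syk*, at 0.04, came to -0.078 and -0.039 with edgeR (RLE and TMM), -0.066 with median scaling, and -0.082 with quantile normalization. Without a filter, 5812 genes fell from nB with GSK343 and 6202 with DMSO, since 18752 genes were then tested. Between the treatments in actB, the genes lower with GSK343 numbered 423 and 425 with edgeR (RLE and TMM), 370 with median scaling, 378 with quantile normalization, and 88 with nB and actB alone, and those higher 606 with quantile normalization and 456 with nB and actB alone. The replicate block gave 758 lower and 1659 higher in actB, or 526 and 1408 with the merged nB library as number 2, and in Pb 1227 lower and 1553 higher, or 994 lower. With the block 442 naive genes fixed on Pb were higher in actB. The block changed no other count of calls reported over all genes by more than 1.5 times. Incompletely silenced genes numbered 162 with nB and actB alone and 473 without a fold limit. With each library left out in turn, the counts ranged from 104 to 341 lower and 504 to 1025 higher in actB, 218 to 649 lower and 472 to 1032 higher in Pb, 157 to 316 incompletely silenced genes, 71 to 120 of these called higher in Pb, and 146 to 323 naive genes fixed on Pb called higher. The count of incompletely silenced genes moved by over 1.5 times only without actB DMSO replicate 1, and the higher genes in actB numbered 504, 521, 597, and 523 without actB DMSO replicates 1 and 3 and actB GSK343 replicates 1 and 3, and the lower genes 104, 125, 111, and 104. In Pb, without DMSO replicates 1 and 3 and GSK343 replicates 1 and 3, the lower genes numbered 286, 325, 255, and 218, and without DMSO replicate 1 and GSK343 replicates 1 and 3 the higher genes numbered 533, 486, and 472. Where 1 nB library is left it is assumed to vary like the other groups. With both actB libraries numbered 2 left out, 211 of the 247 genes remained. The cause of these changes was not tested.

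Depth limits low genes: 67 of the 247 genes were under 1 RPKM in actB with DMSO. With 2 nB libraries, a gene not called against nB may still differ from it.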
